A study of Mus musculus with 4 samples.

Results

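The epithelium of the colon and the phagocytes in its wall make oxidants with different NADPH oxidases. The genes described here are Duox2, Duoxa2, Nox1, Noxo1 and Noxa1 of the epithelial oxidases, Cybb, Ncf1 and Ncf4 of the phagocyte oxidase, and Cyba, which serves Nox1 and Cybb alike. The genes were chosen with earlier results of these data known. Every spot that is not a control and carries one of these 9 gene names was used, whatever its signal. This gave 17 probes with 1 spot each, out of 56605 probes on the array. Of these, 14 were well above background on all 4 arrays and entered the test, so that each of the 9 genes was among the 19325 genes tested. The other 3 probes did not reach that level on any array.

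Whole colon of C57BL/6 mice was profiled on 4 one-colour arrays labelled with Cy3. The 2 control samples had floxed Junb alleles (Junbfl/fl) and no Cre, and the 2 mutant samples had the same alleles together with Cd4-Cre (Junbfl/flCd4-Cre). All 4 came from mice that had drunk dextran sulphate sodium (DSS), which damages the colon epithelium, and were collected on day 5. No colon without DSS was analysed here. Cd4-Cre acts in the T cell lineage, so the epithelium and the phagocytes that carry these oxidases should keep their Junb gene. Deletion in single cell types was not measured here. The labels used here give neither age nor sex and do not say whether replicates were separate mice. Xist, made from the inactive X chromosome, was high on both replicate 1 arrays (-0.55 in control, -0.77 in mutant, log2 scale) and low on both replicate 2 arrays (-6.13 and -6.43). The Y-linked gene Eif2s3y ran the other way (-6.08 and -6.20 against 0.19 and -0.11). The replicates of a genotype therefore differed in sex-linked RNA, and differences within each replicate number stand beside the pooled values.

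The 4 arrays shared 1 slide and 1 scan. Each had between 27935 and 29090 probes well above background, no spot was saturated, and arrays correlated with Pearson's r from 0.976 to 0.984 across genes. Junb itself read 4.23 and 4.39 in control colon against 4.44 and 4.47 in mutant colon, a difference of 0.15 ± 0.11 (SE, n = 2 and 2, limma adjusted p = 0.691). Whole colon holds many cells other than T cells, so this is no check of the deletion. All 11 epithelial markers examined were measured, so the tissue carried colon epithelium as labelled. Of 4 thyroid genes, checked because the thyroid is another site of Duox2, only Tg was bright enough to test (difference -0.076, log2 scale).

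NADPH oxidases are membrane enzymes that move electrons from NADPH to oxygen and so make superoxide or hydrogen peroxide. Duox2 sits at the apical face of gut epithelial cells, releases hydrogen peroxide towards the lumen and needs Duoxa2 to mature and reach the membrane. Nox1 is held in the membrane of colon epithelial cells by p22phox (Cyba) and switched on by the organiser Noxo1 and the activator Noxa1. The phagocyte oxidase of neutrophils and macrophages pairs gp91phox (Cybb) with the same p22phox and is switched on by cytosolic subunits, p47phox (Ncf1) and p40phox (Ncf4) among them, and a Rac protein. Its oxidant burst kills ingested microbes, and loss of it causes chronic granulomatous disease.

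Each probe is 60 bases long, and its place in the transcript decides which forms of the RNA it reads. The 4 printed here show where probes of these genes lie, with coordinates on mm9, the build of the array files. How a probe's place bears on its signal was not tested. The Duox2 probe A_55_P1974760 (chr2:122106173-122106232, minus strand) ends on the letters of a stop codon, in capitals, with an open reading frame before it. The 2 Nox1 probes lie far apart in the same transcript on the minus strand, A_55_P2741052 at base 227 (chrX:130642272-130642331) and A_55_P1997906 at base 1723 (chrX:130621740-130621799). The Cyba probe A_66_P111502 spans 411 bases of genome on the minus strand (chr8:124951180-124951590), more than its own length, so it crosses a splice junction.
Duox2 A_55_P1974760: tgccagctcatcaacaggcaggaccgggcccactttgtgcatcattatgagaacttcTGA
Nox1 A_55_P2741052: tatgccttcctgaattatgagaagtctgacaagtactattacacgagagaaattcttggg
Nox1 A_55_P1997906: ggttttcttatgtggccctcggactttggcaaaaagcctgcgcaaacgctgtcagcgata
Cyba A_66_P111502: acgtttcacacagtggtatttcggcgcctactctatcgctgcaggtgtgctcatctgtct

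Duox2 and its maturation factor Duoxa2 are neighbours read away from each other. In RefSeq on GRCm38.p6, the annotated extents of the genes leave 159 bases between them (chr2:122298741-122298899, given on the plus strand, which is that of Duoxa2). In the promoter table the start sites of the genes lie 673 bases apart, that of Duox2 inside its annotated extent. The stretch is shown because it is all that separates the partners. The capitals mark TATAAA, the TATA box, whose first base lies 30 bases before the Duoxa2 start.
Duox2 to Duoxa2: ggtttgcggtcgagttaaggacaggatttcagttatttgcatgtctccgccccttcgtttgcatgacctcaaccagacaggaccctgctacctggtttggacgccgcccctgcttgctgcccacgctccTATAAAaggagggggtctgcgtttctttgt

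A RefSeq promoter was found for 8 of the 9 genes, all but Ncf4. Their 250 bases before the start were searched on both strands for 5 motifs, and no matches in a window overlapped. TATAAA was in 1 of the 8 (Duoxa2) and in 12.4% of 32851 windows of this length. TGANTCA, the AP-1 motif that JunB and its relatives bind, was in 2 of the 8, at 168 bases before the start of Duoxa2 and 139 before that of Cybb, and in 6.75% of all windows. TTCNNNGAA, the motif of STAT factors, was in 1 (Ncf1, 7.02% of all) and CCAAT in 3 (Duox2, Noxa1 and Cybb, 33.8% of all). The NF-kB motif was in 0 of the 8 and in 0.356% of all windows. These are matches of letters and say nothing of binding in these samples.

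None of the oxidase genes passed a Benjamini-Hochberg adjusted p of 0.05 in limma, and 0% of the 19325 genes did. At an unadjusted p under 0.05, 1 of 9 members was higher in the mutants, Nox1, against 5.31% of all genes, and 0 were lower, against 3.98%. The median difference of the 9 genes, mutant minus control, was 0.19 on the log2 scale and that of all genes 0.022. The members' median ran from 0.12 without mutant replicate 2 to 0.29 without control replicate 2. In absolute size the median difference was 0.19 for the members and 0.17 for all genes. An absolute difference under 0.30 was found for 8 of the 9, with Cyba (0.27) and Duoxa2 (0.27) just inside it, and for 73.1% of all genes. In whole tissue, fewer cells of a type and less RNA per cell cannot be told apart.

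The mutants were higher on average for 7 of the 9 genes, against 53.4% of all genes, and in both replicate pairs for 6, against 36.3%. Those 6 were Cyba and the 5 epithelial genes. The epithelial genes had a median difference of 0.23, with 0.22 in the replicate 1 pair and 0.16 in the replicate 2 pair. The 3 phagocyte genes had a median of -0.0085, with -0.069 and 0.052 in the pairs. Both mutants lay above both controls for 4 of the 9 members (Duoxa2, Nox1, Noxa1 and Cyba), against 25.7% of all genes, and below them for 0, against 17.6%. The difference between the epithelial and the phagocyte genes was not tested.

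Of the 14 member probes, 0 passed the adjusted threshold (0% of 28897 probes), 1 was higher at an unadjusted p under 0.05 (4.58%) and 0 were lower (3.64%). Both mutants lay above both controls for 5 (23.9%) and below for 0 (16.9%). The mutants were higher on average for 11 (52.4%) and in both pairs for 9 (34.4%). Probes of 1 gene read the same RNA and are not independent.

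**Figure D1:**
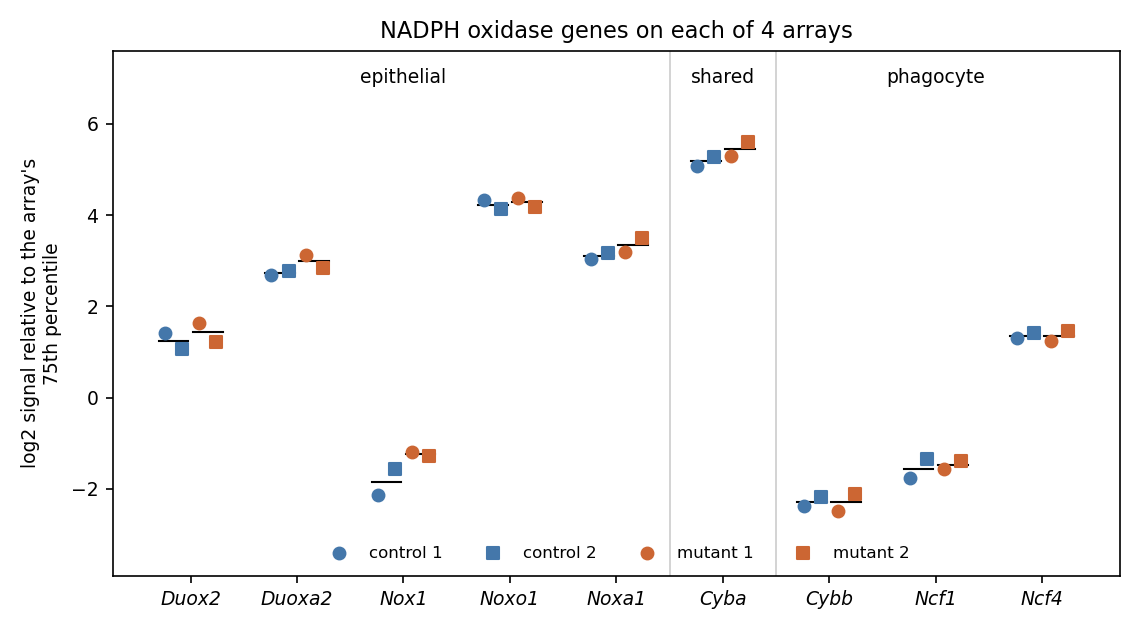
Log2 signal of the brightest passing probe of each of the 9 genes on each array, relative to that array's 75th percentile. Blue points are controls, orange points mutants, circles replicate 1 and squares replicate 2, and a black line marks each group's mean. Levels of different genes come from different probes and are not comparable. The widest gap between the groups' means is at Nox1.

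Signals are log2 of the processed intensity minus the array's 75th percentile, so that 0 is the level of a spot at that percentile. Duox2 was read by 3 probes. On the brightest, the controls read 1.42 and 1.06, the mutants 1.64 and 1.22. The groups overlapped, since mutant replicate 2 lay below control replicate 1. Duox2 differed by 0.19 ± 0.20 (SE, n = 2 and 2, limma adjusted p = 0.790), a fold of 1.14 with a 95% interval from 0.797 to 1.63. The probe that ends on the stop codon gave 0.13 ± 0.20 and the remaining probe 0.13 ± 0.38 (limma adjusted p over all probes = 0.896 and 0.945). The latter was lower in the mutant of the replicate 1 pair (-0.11) and higher in that of the replicate 2 pair (0.37). The brightest probe was higher in the mutant of both pairs, by 0.22 in the replicate 1 pair and 0.16 in the replicate 2 pair. Without mutant replicate 1, the brightest probe differed by -0.019. That fit sets mutant replicate 2 against the controls of both replicate numbers.

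Duoxa2, the partner that brings Duox2 to the cell surface, had 1 probe. Here the controls read 2.68 and 2.76, the mutants 3.13 and 2.85. Both mutants lay above both controls, mutant replicate 2 by little. The difference was 0.27 ± 0.14 (SE, limma adjusted p = 0.598), a fold of 1.20 with an interval from 0.947 to 1.53. It was 0.45 in the replicate 1 pair and 0.083 in the replicate 2 pair, and 0.13 without mutant replicate 1.

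Nox1 had the widest gap between the genotypes of the 9 genes. Its probe at base 1723 had a processed intensity of 75.4 and 111 units on the control arrays, and 137 and 111 on the mutant arrays. After scaling, the controls read -2.13 and -1.57, the mutants -1.18 and -1.28. Both mutants were then above both controls, and control replicate 1 was the lowest array. Nox1 was 1.54-fold higher (log2 difference 0.62 ± 0.24, SE, 95% interval 0.0068 to 1.23), with an unadjusted p of 0.0483 and a limma adjusted p of 0.533, so it did not pass the threshold. By size of difference it ranked 647 from the top, at percentile 96.7 of all genes. It differed by 0.95 in the replicate 1 pair and by 0.29 in the replicate 2 pair. The value was 0.34 without control replicate 1 and 0.39 after normexp background correction. The Nox1 probe at base 227 was not well above background anywhere, at -4.55 and -5.48 in control colon against -4.18 and -4.42 in mutant colon.

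Noxo1 and Noxa1 switch Nox1 on at the membrane. For Noxo1 the controls read 4.32 and 4.14, the mutants 4.38 and 4.18, and the groups overlapped. Its difference was 0.047 ± 0.13 (SE, limma adjusted p = 0.927), with an interval of the fold from 0.824 to 1.30, and it was -0.062 after quantile normalization. For Noxa1 the controls read 3.05 and 3.18, the mutants 3.20 and 3.49. Its groups did not overlap, but control replicate 2 and mutant replicate 1 were almost level. The difference was 0.23 ± 0.14 (SE, limma adjusted p = 0.645), a fold of 1.17 with an interval from 0.915 to 1.504. Without mutant replicate 2 it was 0.083.

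Cyba encodes the membrane subunit that both Nox1 and Cybb require. Its controls read 5.07 and 5.28, its mutants 5.29 and 5.60. The groups did not overlap, but control replicate 2 and mutant replicate 1 were almost level. Cyba differed by 0.27 ± 0.15 (SE, limma adjusted p = 0.619), a fold of 1.21 with an interval from 0.926 to 1.58. The probe that crosses a splice junction gave 0.35 ± 0.17 (limma adjusted p over all probes = 0.658), from 2.41 and 2.78 in control colon against 2.81 and 3.07 in mutant colon. The remaining Cyba probe was at background on all 4 arrays. Quantile normalization brought Cyba to 0.050, and leaving out mutant replicate 2 brought it to 0.12.

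**Figure D2:**
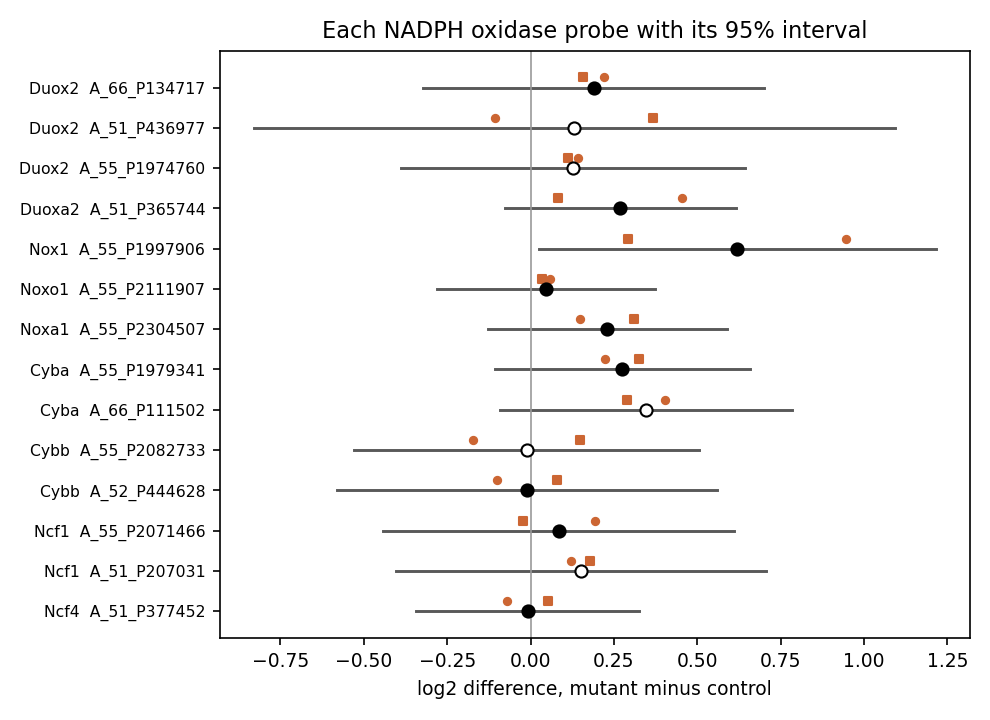
Log2 difference, mutant minus control, of the 14 probes well above background, as large points (black for the probe that stands for its gene, white for the others) with the 95% interval from the fit over all probes as a line. Small orange circles are the replicate 1 pair and small squares the replicate 2 pair. Only the interval of Nox1 leaves out 0, with an unadjusted p of 0.0439 in that fit and an adjusted p of 0.598.

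Cybb, the catalytic subunit of the phagocyte oxidase, differed little. On its brighter probe the controls read -2.38 and -2.19, the mutants -2.48 and -2.11. The mutants were the lowest and the highest of the 4 arrays, so the controls lay inside their range. The difference was -0.011 ± 0.23 (SE, limma adjusted p = 0.990), with an interval of the fold from 0.657 to 1.499. The other probe, further along the transcript, gave -0.012 ± 0.20, from -2.36 and -2.45 in control colon against -2.53 and -2.30 in mutant colon. The signal was dim, between 55.8 and 72.2 intensity units on the brighter probe.

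The cytosolic subunits Ncf1 and Ncf4 differed little as well. For Ncf1, which carries the phosphorylation switch of the complex, the controls read -1.76 and -1.35, the mutants -1.57 and -1.38. The mutants lay between the controls, and the difference was 0.085 ± 0.21 (SE, limma adjusted p = 0.918, interval of the fold 0.728 to 1.55). Another Ncf1 probe gave 0.15 ± 0.22, and the last one was at background on all 4 arrays. For Ncf4, which binds lipids of the phagosome membrane, the controls read 1.31 and 1.41, the mutants 1.24 and 1.46. Again the controls lay inside the range of the mutants, and the difference of -0.0085 ± 0.13 (SE, limma adjusted p = 0.986) had an interval of the fold from 0.789 to 1.25. These intervals bound the differences and do not show that the genotypes are alike.

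**Figure D3:**
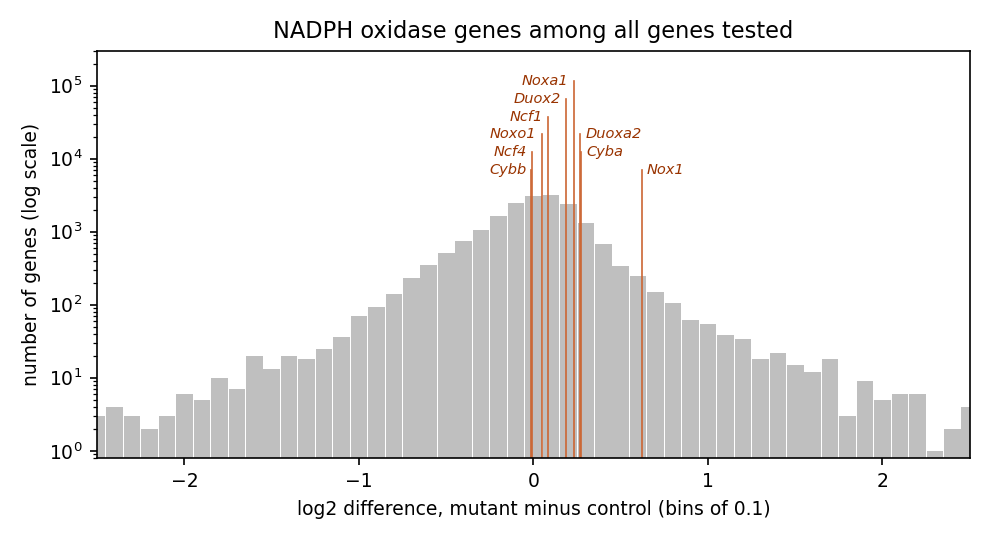
Number of genes (log scale) in bins of 0.1 of the log2 difference, mutant minus control, over all genes tested, with the 9 oxidase genes marked by orange lines whose height carries no meaning. The axis stops at 2.5 on either side, which leaves out 45 genes. Nox1 lies at 0.62 and the other members in the crowded middle, from -0.011 to 0.27.

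The members also differed between the replicate numbers, by amounts like those between genotypes. Averaged over both genotypes, replicate 2 minus replicate 1 was -0.39 for Duox2 and -0.19 for Noxo1, against 0.28 for Cybb, 0.30 for Ncf1, 0.26 for Cyba and 0.16 for Ncf4. The other epithelial genes went both ways, with 0.23 for Nox1, 0.21 for Noxa1 and -0.098 for Duoxa2. Duox2 was lower on the replicate 2 array within control (-0.35) and within mutant (-0.42). Cybb was higher there within both (0.19 and 0.37). The median size of this contrast was 0.23 over the members and 0.16 over all genes. Xist and Eif2s3y move with it, and their part in it was not tested.

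Pairs of subunits were compared within each array by the log2 ratio of their signals, over 6 pairs. With 2 arrays a group the exact permutation test cannot give a two-sided p under 0.333, and all 6 adjusted p values were 1. The ratio of Duox2 to Duoxa2 differed by -0.080 between genotypes, with the controls (-1.26 and -1.70) enclosing the mutants (-1.496 and -1.63). The ratio of Nox1 to Noxo1 was higher in both mutants (-5.56 and -5.45) than in both controls (-6.45 and -5.71), by 0.57. The ratio of Nox1 to Noxa1 differed by 0.39 and that of Duox2 to Nox1 by -0.43, each with overlapping groups. The ratio of Cybb to Cyba was lower in both mutants (-7.77 and -7.71) than in both controls (-7.45 and -7.46), a difference of -0.29 that was 0.019 after quantile normalization. That of Ncf1 to Ncf4 differed by 0.094.

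Other NADPH oxidase genes, some of them outside these complexes, came from a list of 12, of which 9 were tested. None passed the adjusted threshold. At an unadjusted p under 0.05, 3 were higher, against 5.31% of all genes, and 0 lower, against 3.98%. The median of the list was 0.055, and 0.018 to 0.24 without 1 array in turn.

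Rac proteins bind the active complexes. Rac1, made in most cells, differed by 0.27 ± 0.10 (limma adjusted p = 0.513), and by 0.081 after quantile normalization. Rac3 differed by 0.38 ± 0.14 (adjusted p = 0.520) and Rac2, the form of blood cells, by -0.22 ± 0.13 (adjusted p = 0.638). The proton channel gene Hvcn1, which balances the charge that the phagocyte oxidase moves, differed by -0.17 ± 0.13, Prex1 by 0.094 ± 0.15 and Cyb5r4 by 0.055 ± 0.11. The related oxidase gene Nox4 differed by -0.065 ± 0.45 and Duoxa1, the maturation factor of Duox1, by -0.41 ± 0.53. Each of these values rests on a dim probe above background on 3 of the 4 arrays, and the genes' other probes did not enter the test. Duox1 and Nox3 were at background on all 4 arrays. Among peroxidases, which use the hydrogen peroxide made, Lpo differed by -0.29 ± 0.15 (adjusted p = 0.608), while Mpo of neutrophils and Epx of eosinophils were at background on all 4 arrays.

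Genes that remove superoxide and peroxide numbered 24, and all were tested. Of these, 15 were higher and 9 lower on average, where 53.4% of all genes were higher. Their median of 0.10 ran from -0.030 to 0.15 without 1 array in turn. At an unadjusted p under 0.05, 4 were higher, against 5.31% of all genes, and 0 lower, against 3.98%. None passed the adjusted threshold. Gpx2, the glutathione peroxidase of gut epithelium, read 6.62 and 6.72 in control colon against 7.69 and 7.17 in mutant colon. Both mutants were higher, with a difference of 0.76 ± 0.19 (SE, limma adjusted p = 0.418), which was 1.07 in the replicate 1 pair, 0.45 in the replicate 2 pair and 0.50 without mutant replicate 1. Glutathione reductase (Gsr) differed by 0.37 ± 0.12, the peroxiredoxin Prdx2 by 0.36 ± 0.10 and the mitochondrial superoxide dismutase Sod2 by 0.33 ± 0.13 (limma adjusted p = 0.489, 0.437 and 0.529).

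Markers of the phagocytes that carry the oxidase went different ways. Of 9 neutrophil markers tested, 5 were higher and 4 lower on average, where 53.4% of all genes were higher. Their median difference was 1.20, with 1.501 in the replicate 1 pair and 0.31 in the replicate 2 pair. That median was 0.34 after normexp correction and 0.73 with only probes above background on all 4 arrays. Leaving out control replicate 1 gave 0.19, and leaving out mutant replicate 2 gave 0.51. The calprotectin genes S100a8 and S100a9 each differed by 2.24 (± 0.78 and ± 0.88, SE), and the lactoferrin gene Ltf by 1.48 ± 0.26, none past the adjusted threshold. In the replicate 1 and replicate 2 pairs S100a8 differed by 2.01 and 2.48, S100a9 by 2.31 and 2.18, and Ltf by 1.501 and 1.46. Leaving out 1 array leaves the replicate numbers unbalanced between the groups. Without mutant replicate 2, S100a8 differed by 1.25 and S100a9 by 1.29, and without control replicate 1 by 1.49 and 1.22. Without mutant replicate 1 they differed by 3.23 and 3.20, and without control replicate 2 by 2.99 and 3.26. Of the 4 lower markers, Camp differed by -0.22, Ly6g by -0.14, and Csf3r and Elane by -0.015 each. Ngp was at background on all 4 arrays, and Cxcr2 and Mmp8 were above it on 1. The summed scaled signal of the neutrophil markers was 52.6 to 57.2 in control colon and 61.4 to 82.2 in mutant colon.

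Macrophage and monocyte markers had a median of -0.096 over 12 genes, 4 higher and 8 lower, where 53.4% of all genes were higher. The median ran from -0.36 to 0.19 without 1 array in turn. Their summed signals were 222 to 224 in control colon and 227 to 260 in mutant colon. The brightest of them, Ly6c2, weighs most in the sums (7.18 and 6.85 in control colon, 7.48 and 6.96 in mutant colon, log2 scale). Among the markers, Cd14, the coreceptor for bacterial lipopolysaccharide, differed by 0.70 ± 0.10. The mannose receptor gene Mrc1 differed by -0.64 ± 0.23, and neither passed the adjusted threshold. The 4 general leukocyte genes were all lower on average (median -0.10, and -0.047 without mutant replicate 1 or -0.18 without mutant replicate 2), with summed signals of 14.2 to 14.4 and 12.8 to 13.95. The part of these cells in the values of Cybb, Ncf1 and Ncf4 was not tested.

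On the epithelial side, 9 of 11 general markers were higher and 2 lower on average, where 53.4% of all genes were higher. Their median was 0.11, and -0.070 after quantile normalization. Their summed signals were 1087 to 1093 in control colon and 1149 to 1212 in mutant colon. Markers of surface colonocytes had a median of -0.31 (1 higher, 7 lower), which was -0.14 without control replicate 1 and -0.20 without mutant replicate 1, and summed signals of 540 to 655 and 410 to 575. Crypt base markers had a median of 0.46 over 4 tested genes, all higher on average, and goblet cell markers one of -0.19 over 6, all lower. The goblet median was -0.019 without mutant replicate 1, -0.090 without control replicate 2, -0.35 without control replicate 1 and -0.38 without mutant replicate 2. The part of these cells in the values of Duox2, Nox1 and their partners was not tested. Of the remaining cell types, smooth muscle (6 of 6 lower on average, median -0.60), T cell (6 of 6, median -0.44) and B cell markers (5 of 6, median -0.21) were mostly lower. The T cell median was -0.28 without control replicate 1, and that of B cells -0.089 without mutant replicate 2 and -0.36 without mutant replicate 1. The 2 eosinophil markers tested had a median of -0.18 with no stable direction, since it was 0.28 without control replicate 2, 0.022 without mutant replicate 1, -0.38 without mutant replicate 2 and -0.64 without control replicate 1.

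Cytokines known to act on these oxidases came from a list of 12, of which 7 were tested. On average 6 were higher (median 1.04), against 53.4% of all genes. Ifng, a known inducer of Cybb in phagocytes and of Nox1 in colon cells, differed by 1.85 ± 0.32. Il1b differed by 1.66 ± 0.32, Il6 by 1.95 ± 0.59 and Tnf by 0.86 ± 0.19. After normexp correction Ifng differed by 0.94 and Il6 by 1.16, both of which are dim. Without mutant replicate 2, Il6 differed by 1.25. At an unadjusted p under 0.05 these 4 were higher, against 5.31% of all genes, and 0 lower, against 3.98%. None passed the adjusted threshold. The median of the list was 0.66 without control replicate 2 and 0.20 without the filter on dim probes, where all genes on the array are tested. Il17a, Il17f, Il4, Il13 and Il10 were at background on all 4 arrays.

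**Figure D4:**
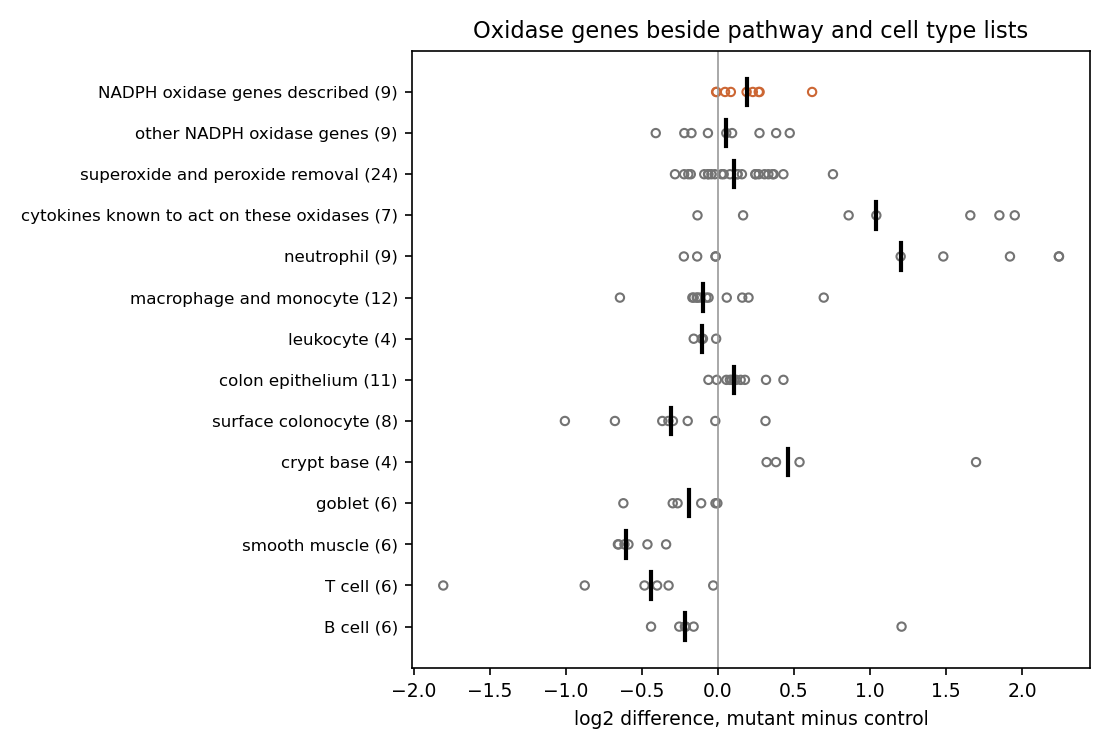
Log2 difference, mutant minus control, of each gene of the oxidase set (orange) and of the pathway and cell type lists (grey), with the number of genes in brackets and a black line at each median. The oxidase genes lie between -0.011 and 0.62, while the neutrophil and cytokine lists reach 2.24 and 1.95.

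Genes with a pattern like that of Duox2 and of Cybb were found by the root mean square distance between log2 values over the 4 arrays, each gene centred on its own mean, among 3359 named genes with an SD of at least 0.3. Nearest to Duox2 were Gm39273 (distance 0.059), Tat (0.063), Arntl2 (0.071), Mira (0.073) and Arhgap11a (0.073), and 16 genes in all lay within 0.1. Nearest to Cybb were Wipi2 (0.119), AA986860 (0.123), Mep1a (0.123), Hoxb7 (0.125) and Cyp2c65 (0.125). Over the 4 arrays the SD was 0.25 for Duox2 and 0.17 for Cybb, both under the minimum set for the other genes, so the distances of the 2 genes are not comparable. With 4 arrays these distances describe the arrays and no more.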

How the data were processed

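The authors deposited scanner files of linear spot intensity. The file headers name Agilent Feature Extraction, version 11.5.1.1, as their source. The columns used hold a background-corrected processed intensity, and the mean and local background intensity. Yes or no flags (the unit "other" in the deposited files) mark outlier, saturated and dim spots. No normalization between arrays is recorded.

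Sample titles gave genotype and replicate. From each array's log2 processed signal, the 75th percentile over non-control spots was subtracted. Outlier spots were left out, which removed 11 probes. Probes well above background on at least 2 arrays were kept, and the brightest stood for its gene. Limma 3.58.1 (R 4.3.3, lmFit, eBayes with intensity trend, two-sided, prior degrees of freedom 3.12) compared the groups over 19325 genes and over 28897 probes, with Benjamini-Hochberg adjustment at 0.05, after tests on simulated data. The p-values rest on the spread between 2 samples a group, drawn towards the trend over all genes. With so few samples the precision is limited.

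The members and the 16 lists (138 genes) were chosen with earlier results of these data known, and lists had no set test. The text names all members, Junb, measured genes of the other oxidase list and peroxidases, and the 5 nearest patterns. In each other list it names at most the 4 genes of smallest p, and for neutrophils also the 4 lower ones. Some list genes that this rule names are not reported here. Genes at background are named to show what could not be tested, and Xist and Eif2s3y were chosen after their values were seen. Gene names are the array's own, of which 14435 tested names are current RefSeq symbols. Alternatives were normexp correction (offset 50), quantile normalization, no or a stricter filter, the mean over probes, no intensity trend, a replicate block and leaving out each array.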

Additional observations from a re-analysis of the deposited data

Results flagged for a closer look

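For 3 members of the phagocyte oxidase the mutant was higher in one replicate pair and lower in the other. Cybb differed by -0.10 in the replicate 1 pair and by 0.079 in the replicate 2 pair. Ncf1 differed by 0.19 and -0.023 on its brightest probe, and Ncf4 by -0.069 and 0.052. The other Ncf1 probe tested was higher in the mutant of both pairs (0.12 and 0.18). A pair holds 1 array of each genotype, so the difference between pairs was not tested. Each of these values is smaller than the standard error of the pooled difference of its gene.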

How the results depend on the processing

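No oxidase gene passed the adjusted threshold under any alternative run. Of 99 values of the members under alternatives, 87 kept their direction and 12 turned, all of them of Duox2, Noxo1, Cybb, Ncf1 or Ncf4. The 87 include values that could not turn. The changed filters, the fit without the intensity trend and the replicate block left each member's difference as it was. After quantile normalization Noxo1 was -0.062, Cybb 0.069 (its other probe 0.069), Nox4 0.0033 and the ratio of Cybb to Cyba 0.019. After normexp correction Cybb was 0.039 (other probe 0.047) and Nox4 0.068. Leaving out 1 array also leaves the replicate numbers unbalanced between the groups. Without 1 array in turn, Duox2 ranged from -0.019 to 0.40, Noxo1 from -0.055 to 0.15, Cybb from -0.20 to 0.17, Ncf1 from -0.12 to 0.29 and Ncf4 from -0.12 to 0.10. Prex1 ranged from -0.057 to 0.24, Nox4 from -0.63 to 0.50 and Duoxa1 from -1.14 to 0.32. The probes that do not stand for their gene ranged from -0.38 to 0.64 and from -0.061 to 0.32 for Duox2, from -0.13 to 0.10 for Cybb and from -0.0034 to 0.31 for Ncf1. The number of members at an unadjusted p under 0.05 was 0 after quantile normalization, without the filter on dim probes and without the intensity trend, and 0 to 1 without 1 array. The median of all genes was -0.12 without the filter.

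The groups share replicate numbers, and deviations of same-numbered samples from their group means correlated at 0.24 across genes, over only 2 pairs. With the replicate block, 46 genes (0.238%) and 68 probes (0.235%) passed the adjusted threshold, 0 of them members, and 3 of the list genes did (S100a8, S100a9 and Ltf). Under an unadjusted p of 0.05 the block left 2 members higher, Nox1 and Cyba, against 10.1% of all genes. Their adjusted p values in limma were 0.243 and 0.207. Nox1, Cybb and Ncf1, which were dim, had the widest standard errors of the 9, with that of Duox2 close behind, and a link between signal and error was not tested. The causes of these changes were not tested.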
